A study of Rattus norvegicus with 10 samples.

Results

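Of the 10 arrays in the series, 2 had the lowest signals for lymphocyte genes such as Cd37, and these lymphocyte-poor arrays were compared with the other 8. The pair was chosen by measured values and not by a label. Casein 6 belongs to the casein diet and soy 149 to the soy diet, so 1 poor array stood in each diet beside 4 other arrays. Each array measured RNA from a whole mammary gland, taken on postnatal day 21 from female SD rats. The purified AIN-93G diet contained casein in the casein group and soy protein isolate in the soy group, with exposure from gestation day 4 until weaning and no other treatment in the labels. The labels mention RNA pools and parallel cRNA targets from each pool, so an array may not be a separate animal, and spreads and p-values cover only the differences between these samples. No dissection of the node is described in the labels, which also name no batch.

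Mammary fat pads of rodents can hold a lymph node beside the ducts. A lymph node gathers B cells in follicles and T cells in the zone around them, and lymphocytes enter it through high endothelial venules, vessels that carry ligands for homing receptors. Adhesion molecules and chemokines made by the node's stroma hold and place the cells. The rest of the gland at this age is fat, collagen-rich stroma, blood vessels and a small epithelial tree of luminal and basal cells. In bulk tissue, fewer cells of a type and less RNA per cell cannot be told apart.

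Because the arrays were chosen on lymphocyte signal, every difference between the groups below is a description, with no test. Values are log2 of the MAS5 signal, a linear hybridisation intensity, and differences are the mean of the 2 poor arrays minus the mean of the other 8. A probe set was called lower when that difference was at least 2-fold and both poor arrays lay below all 8, and called higher in the mirrored case. Of 9520 probe sets above the low-signal filter, 230 were called lower, which is 2.42%, and 64 were called higher, which is 0.672%. Without the 2-fold rule, both poor arrays lay below all 8 for 15.8% of the probe sets and above all 8 for 6.00%. The median difference over all 9520 was -0.05, and 56.9% of the differences were negative. These shares used the contrast that chose the arrays, so they are printed as a background and nothing is read from them.

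The median signal ran from 256 to 286 over the 10 arrays. The ratio of the 3' to the 5' actin probe set, a sign of RNA integrity, was 1.33 in casein 6 and 1.41 in soy 149 and 1.22 to 1.57 in the others. Over the tested probe sets the poor pair had a Spearman correlation of 0.944 with each other, 0.851 to 0.898 with the other arrays, and the other 8 had 0.898 to 0.968 among themselves. Skeletal muscle transcripts did differ: the mean of the 18 tested muscle genes was 13.06 in casein 6 and 12.53 in soy 149. Among the other 8 it was 12.84 in soy 157, 11.60 in soy 147 and 6.74 to 8.03 in the remaining 6. Muscle signal therefore moved with the poor pair, and its part in the differences was not tested.

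The markers gave a mixed answer. Cd37, a tetraspanin of B cells and other leukocytes, was 8.43 in casein 6 and 6.98 in soy 149, against a lowest of 9.01, a median of 9.61 and a highest of 10.69 in the other 8. Casein 6 is the nearest array inside the rule and soy 147, at 9.01, the nearest outside it. Cd74, the invariant chain that escorts class II molecules, was 11.50 and 10.99, against 12.62, 12.76 and 13.22. Both poor arrays lay below all others for these genes. Cxcr5, the receptor that leads B cells into follicles, was 7.18 in casein 6 and 7.61 in soy 149, against 7.42, 7.89 and 8.14. Soy 149 lay inside the range of the other arrays for Cxcr5, which was not called. Cxcl13, the follicle chemokine that binds Cxcr5, was 11.06 and 10.78 against 10.86, 11.21 and 11.75, so it too overlapped. The pair is therefore named here by its low lymphocyte signal, and these values do not show that a whole node was missing.

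**Figure D1:**
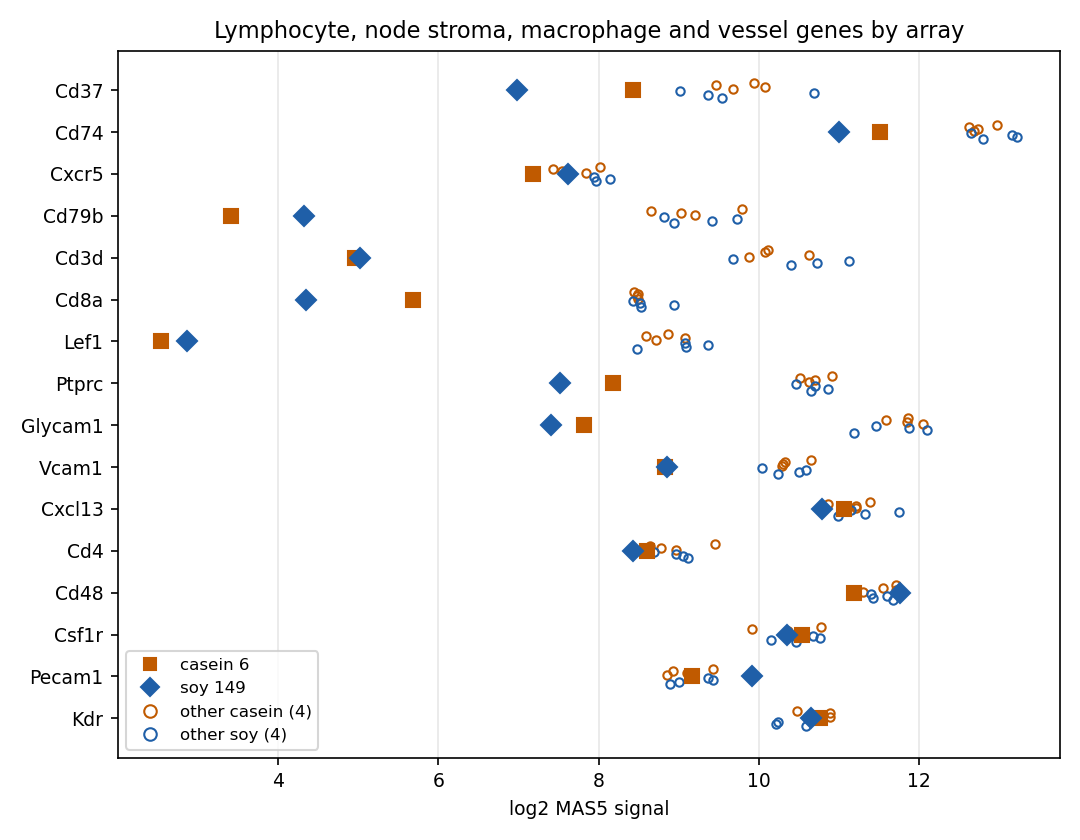
Log2 MAS5 signal (x axis) of 16 genes (rows) on each of the 10 arrays, with casein 6 as filled squares, soy 149 as filled diamonds and the other arrays as open circles coloured by diet. Lef1, Cd79b and Cd3d of the poor pair lie far to the left of all open circles, Cxcr5 and Cxcl13 overlap them, and Csf1r, Pecam1 and Kdr lie among or above them.

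T cell genes showed the widest gaps. Of 16 tested genes of the T cell receptor and costimulation, 11 were called lower, which is 68.8% beside 2.42% of all probe sets. None was called higher, and the median difference was -2.24 beside -0.05 over all probe sets. For 10 of the 16 the mean of the poor pair lay under the low-signal filter, so they passed it only through the other 8 arrays. The same held for 5 of 11 T cell transcription and homing, 4 of 7 B cell surface, 4 of 5 NK and 6 of 20 leukocyte genes below. It also held for 2 of 5 B cell transcription factor, 3 of 20 class I, 1 of 13 lymphoid stroma and 2 of 6 lymphatic genes. Cd3d, a signalling chain of the T cell receptor complex, was 4.96 in casein 6 and 5.03 in soy 149, against a lowest of 9.68, a median of 10.26 and a highest of 11.12. Cd3g, its partner chain, was 6.63 and 6.18 against 10.17, 10.99 and 11.59, a 23.7-fold difference. The groups were separated by more than 3 log2 units for both chains, and Cd3e followed with a difference of -4.84. Cd8a, a coreceptor of cytotoxic T cells, was 5.69 and 4.35 against 8.43, 8.49 and 8.94. Lck, the kinase that starts signalling at the receptor, was 8.11 and 8.44 against 10.80, 11.22 and 11.69, and Cd5, a brake on that signal, differed by -2.98. Cd4, the coreceptor of helper T cells that macrophages of the rat also carry, was 8.61 and 8.42 against 8.63, 8.96 and 9.45, a difference of -0.44 that missed the 2-fold rule. Thy1, which stromal and nerve cells also make, was the one member with a positive difference, 0.30.

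Transcription factors and homing receptors of T cells were also low. Of 11 tested, 7 were called lower, which is 63.6% beside 2.42% of all probe sets, with a median difference of -1.42. Lef1, a nuclear partner of the Wnt pathway in T cells, was 2.54 in casein 6 and 2.87 in soy 149, against 8.47, 8.97 and 9.37, the largest difference among genes called lower and named here, at -6.20. Its relative Tcf7 was 6.88 and 6.90 against 10.07, 10.31 and 10.68. Il2rg, the common chain of several interleukin receptors, was 9.13 and 8.66 against 10.83, 11.24 and 11.64. Both poor arrays lay below all others for each of these genes. Klf2 and S1pr1, which govern the exit of lymphocytes from tissue and are also made by endothelium, differed by only -0.42 and -0.48 and were not called. Signals as low as that of Lef1 in the poor pair are near the bottom of the MAS5 range, so the fold has little meaning there: Lef1 differed 73.8-fold as deposited and 7.50-fold with signals below 64 set to 64. For 132 of the 230 lower probe sets the mean of the poor pair lay under the filter value of 7.47, so the size of some differences may depend on how MAS5 treats dim signals. With signals below 64 set to 64, 228 of the 230 lower calls remained, and the 23.7-fold difference of Cd3g did not change.

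B cell genes on the array were few. Of 27 listed surface and receptor signalling genes, 10 had a named probe set and 7 were tested, of which 3 were called lower. That is 42.9% beside 2.42% of all probe sets. Cd79b, a signalling chain of the B cell receptor, was 3.41 in casein 6 and 4.32 in soy 149, against 8.65, 9.11 and 9.78. Cd40, through which T cells help B cells, was 6.88 and 5.25 against 7.59, 8.17 and 8.81. Cd37, which took part in the choice of the arrays, was the third. Syk and Lyn, kinases that many leukocytes share, differed by -0.61 and -0.43 with both poor arrays below all others. Of 5 tested genes in the list of B cell and germinal centre transcription factors, 2 were called lower, which is 40%. Of their differences 3 were positive, with a median of 0.17. The called genes were Irf8, at 7.39 and 6.95 against 9.58, 9.93 and 10.48, and Ciita, the switch for class II genes. Ciita was 5.66 and 8.08 against 8.18, 8.63 and 8.80. Ebf1, which fat precursors also make, went the other way by 0.26, and Mef2c, a factor of B cells and of muscle, by 0.90, with a second probe set of Mef2c called higher at 1.53. The plasma cell genes Xbp1, Prdm1 and Sdc1 were not called, and Xbp1 was 11.38 and 11.45 against 11.18, 11.42 and 11.52. The largest difference of any probe set, -7.85, belonged to a probe set with no gene name in the annotation used here, which read 3.88 and 3.29 against 10.77, 11.46 and 12.23.

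Genes shared by most white blood cells were lower nearly as a block. Of 20 tested genes of leukocyte signalling and cytoskeleton, 15 were called lower, which is 75% beside 2.42% of all probe sets. All 20 differences were negative, beside 56.9% of all, with a median of -1.59. Coro1a, an actin regulator of leukocytes, was 7.76 in casein 6 and 6.69 in soy 149, against 10.90, 11.38 and 11.84, a 17.5-fold difference. Ptprc, the leukocyte phosphatase CD45, was 8.17 and 7.52 against 10.46, 10.67 and 10.92 in its brightest probe set. The groups did not overlap for either gene. Spn, a leukocyte sialoglycoprotein, differed by -3.50 and Rac2, a small GTPase of blood cells, by -2.37. Cd48, a surface protein of most leukocytes, was the exception: it was 11.19 and 11.76 against 11.30, 11.57 and 11.71. Of 5 tested cytotoxic and NK cell genes, Klrd1 and Klrk1, NK cell receptors, were called lower, which is 40%. They differed by -2.68 and -2.09, while Gzmk, a granzyme, differed by -0.12. Others among the 20 genes called lower with the largest differences were Septin1, Acap1, B4galnt1, Ptprcap and Tnfrsf14, at -5.29, -4.38, -4.28, -3.52 and -3.37.

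**Figure D2:**
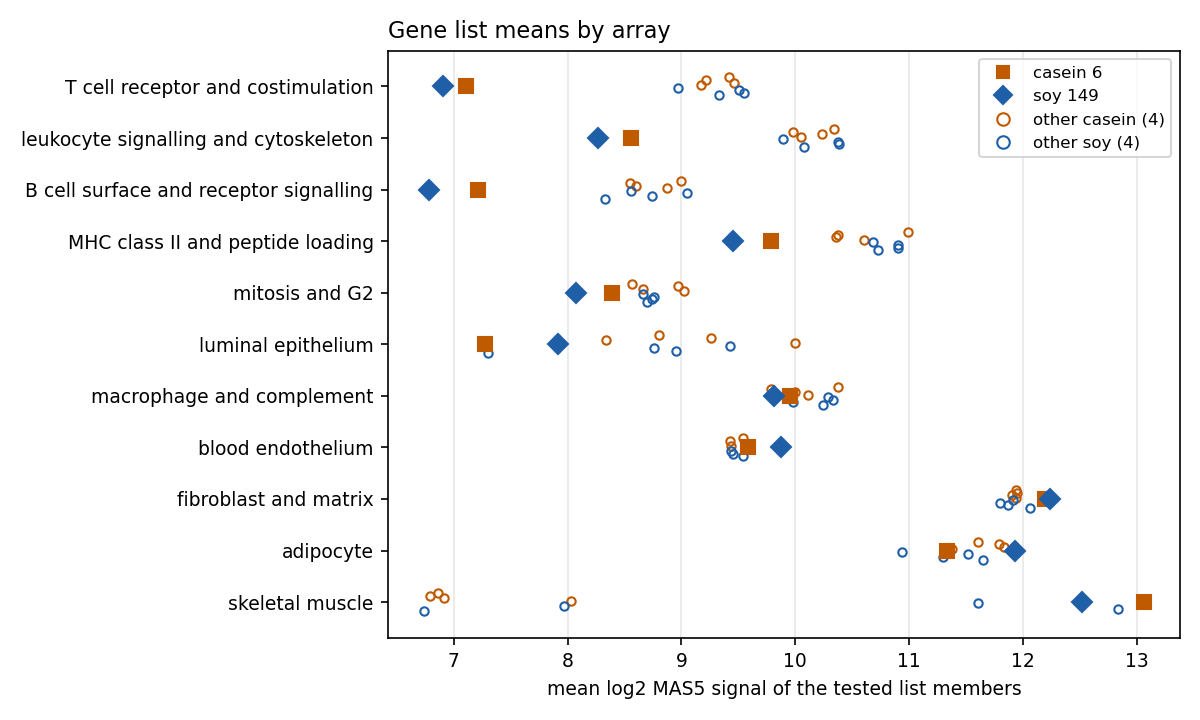
Mean log2 MAS5 signal (x axis) of the tested members of 11 gene lists (rows) on each array, with casein 6 as filled squares, soy 149 as filled diamonds and the other arrays as open circles coloured by diet. The T cell receptor mean is 7.11 and 6.90 in the poor pair and 8.97 to 9.55 in the others, while the muscle mean is high in the poor pair and also in soy 157 and soy 147.

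The antigen presentation genes were lower by less. Of 11 tested class II and peptide loading genes, 5 were called lower, which is 45.5% beside 2.42% of all probe sets. All 11 differences were negative, beside 56.9% of all, and the median was -0.93. RT1-Da, a class II alpha chain, was 10.89 in casein 6 and 10.44 in soy 149, against 12.05, 12.38 and 12.74, and RT1-Db1, its beta chain, was 9.11 and 8.44 against 10.33, 10.74 and 11.28. RT1-Ba was 9.09 and 8.46 against 9.72, 10.43 and 10.99. RT1 genes have close relatives, so a probe set may read more than 1 of them. Cd83, a surface protein of activated antigen-presenting cells, differed by -1.32. Ctss and Lgmn, proteases that process antigen in macrophages as well, differed by -0.40 and -0.07 and were not called. Of 20 tested class I, immunoproteasome and interferon response genes, 5 were called lower, which is 25%. These were Tap1, Mx1, Psmb9, Psmb8 and RT1-S3, with differences of -3.03, -1.75, -1.28, -1.12 and -1.11. B2m, the light chain of class I molecules that nearly all cells carry, was 13.02 and 13.30 against 13.10, 13.28 and 13.66.

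Class II genes are known to share promoter boxes that the class II transactivator reads, among them the Y box, which binds NF-Y. The 150 bases before the start of the 3 class II chains called lower are shown because they carry the letters CTGATTGG of that box, printed in capitals (RefSeq, build GRCr8, chromosome 20). RT1-Ba lies on the plus strand at chr20:4576907-4577056, RT1-Da on the plus strand at chr20:4515265-4515414, and RT1-Db1 on the minus strand at chr20:4560163-4560312.
RT1-Ba: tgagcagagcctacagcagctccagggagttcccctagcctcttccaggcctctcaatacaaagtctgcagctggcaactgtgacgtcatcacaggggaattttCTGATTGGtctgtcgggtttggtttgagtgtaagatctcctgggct
RT1-Da: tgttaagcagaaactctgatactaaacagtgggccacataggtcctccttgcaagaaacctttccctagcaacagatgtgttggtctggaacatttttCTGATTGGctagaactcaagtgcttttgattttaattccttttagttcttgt
RT1-Db1: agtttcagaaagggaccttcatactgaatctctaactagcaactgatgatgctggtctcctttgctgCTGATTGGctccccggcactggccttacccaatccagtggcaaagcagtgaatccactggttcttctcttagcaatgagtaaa
The capitals begin 46 bases before the start of RT1-Ba, 52 before that of RT1-Da and 83 before that of RT1-Db1. Searched on both strands in the 250 bases before each start, these letters occurred in 3 of the 5 class II genes called lower, and in 3.19% of the 33469 promoters of the table. They were not found in the windows of Cd74 and Cd83. In the windows of the 5 class I and interferon response genes called lower, they occurred in RT1-S3 only, and among the B cell transcription factors called lower they occurred in Irf8, beginning 132 bases before its start. The B cell octamer ATGCAAAT, present in 1.56% of all promoters, was found in none of the 12 matched genes of the B cell, class II and class I lists that were called lower. Only Cd37 and Irf8 of these came from the B cell lists, since Cd79b, Cd40 and Ciita had no match in the table, so this says little of B cell genes. A match is a description of the letters and not a binding site.

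Genes of lymphoid stroma, high endothelium and lymphatic vessels were split, and whole-gland RNA does not show which structure made them. Of 13 tested genes of lymphoid stroma, high endothelium and lymphoid chemokines, 3 were called lower, with a median of -0.54. That is 23.1% beside 2.42% of all probe sets. Glycam1, a ligand for L-selectin on high endothelial venules that mammary epithelium also secretes into milk, was 7.81 in casein 6 and 7.40 in soy 149, against 11.19, 11.86 and 12.10, a 17.6-fold difference. Vcam1, an adhesion molecule of activated endothelium and node stroma, was 8.83 and 8.86 against 10.03, 10.31 and 10.65. Birc3, a target of NF-kappaB signalling, differed by -1.04. The groups did not overlap for these 3 genes. Cxcl12, a chemokine of fibroblasts and node stroma, was 12.08 and 11.84 against 11.42, 11.72 and 11.96, and Madcam1, another venule ligand, was 7.08 and 8.16 against 7.35, 7.88 and 8.05. Of 6 tested lymphatic endothelium genes, 1 was called lower, which is 16.7%. It was Reln, a secreted matrix protein, at -1.39. Lyve1, a hyaluronan receptor of lymphatic vessels and some macrophages, was 10.66 and 10.56 against 9.55, 10.37 and 10.78. Prox1, the master factor of lymphatic endothelium, was 6.90 and 7.09 against 7.46, 7.89 and 8.39.

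Blood vessel genes were not lower. Of 24 tested blood endothelial genes, 0 were called in either direction, 21 differences were positive, and the median was 0.25. Both poor arrays lay above all others for 6 of the 24, beside 6.00% of all probe sets. Pecam1, an endothelial junction protein, was 9.17 in casein 6 and 9.91 in soy 149, against 8.85, 9.05 and 9.43. Kdr, the main receptor for VEGF, was 10.77 and 10.65 against 10.21, 10.69 and 10.89. Ramp2, a partner of the adrenomedullin receptor, and Aqp1, a water channel, had both poor arrays above all others, with differences of 0.53 and 0.58. The margin was thin for Aqp1, at 11.22 in casein 6 against a highest of 11.21 in the others. The mean of the list was 9.58 in casein 6 and 9.88 in soy 149 against 9.42 to 9.59, so only soy 149 exceeded the others. Pericyte and smooth muscle genes had a median of 0.08 over 16 tested, with Tagln, an actin-binding protein of smooth muscle, called lower at -1.18.

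Few macrophage, dendritic or mast cell genes were called. Of 17 tested macrophage and complement genes, 1 was called lower, which is 5.88% beside 2.42% of all probe sets, and the median was -0.10. Csf1r, the receptor that keeps macrophages alive, was 10.54 in casein 6 and 10.35 in soy 149, against 9.91, 10.48 and 10.77, and C1qa, a complement subunit made by macrophages, was 11.18 and 10.96 against 10.67, 11.13 and 11.57. The poor arrays lay inside the range of the others for both genes. The called member was Lyz2, lysozyme, at 11.47 and 11.14 against 12.42, 12.73 and 13.44. None of 5 dendritic cell genes was called, with a median of 0.04. Of 9 mast cell genes, Tpsab1, a tryptase, was called higher at 1.21, and the median was 0.33. S100a9, a calcium-binding protein of neutrophils, was 6.17 and 3.79 against 7.30, 8.36 and 9.80 and was called lower, while Alox5ap, the only other granulocyte gene tested, was 9.03 and 8.53 against 7.34, 8.30 and 8.74 and was not called.

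**Figure D3:**
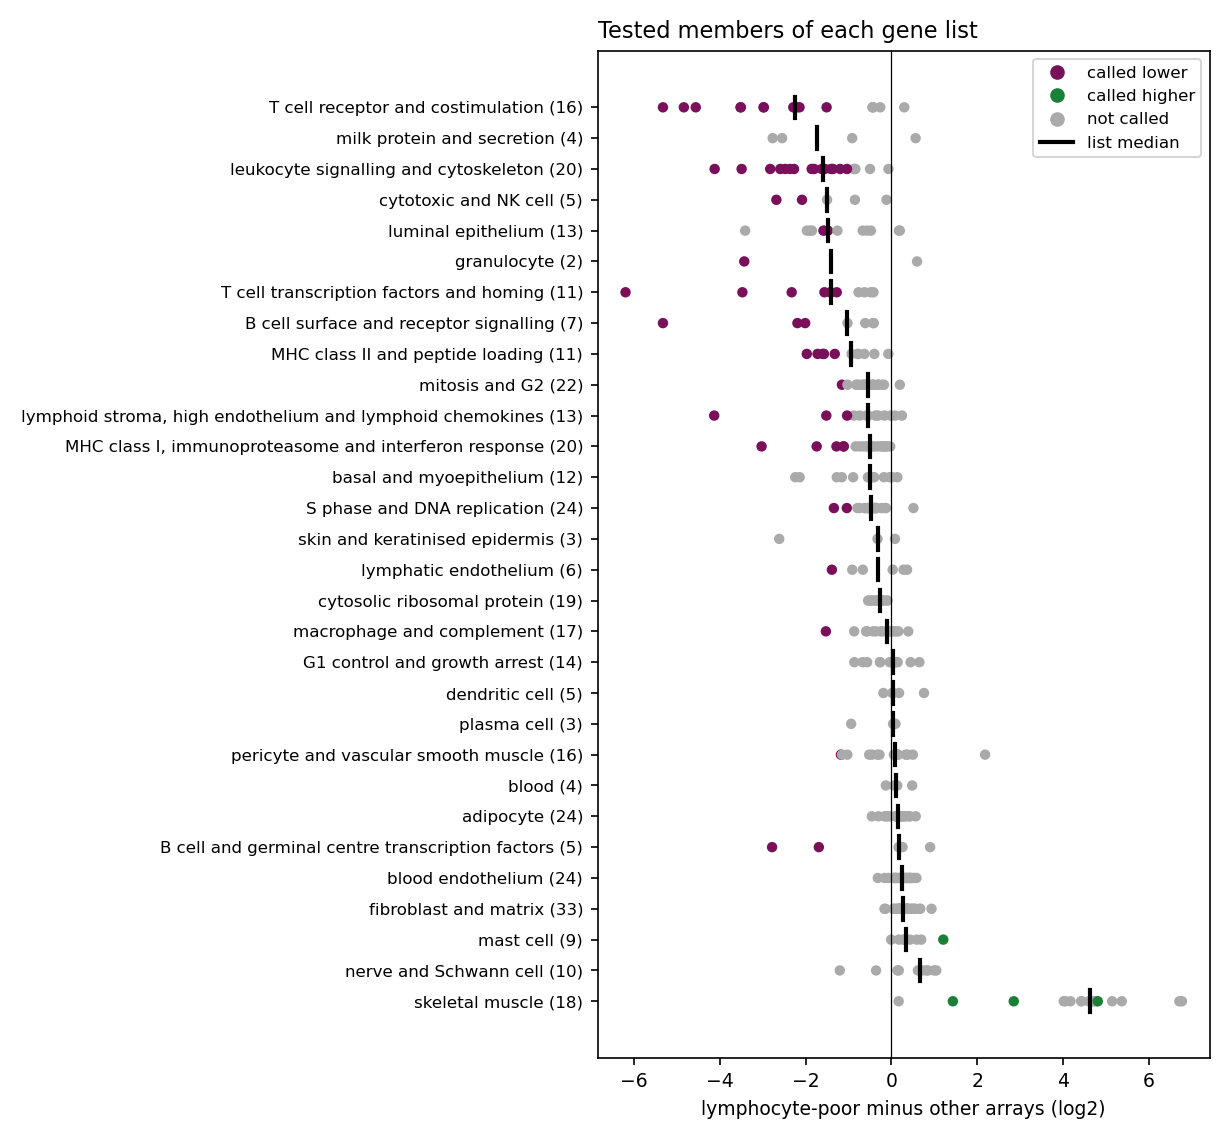
Difference of mean log2 signal, lymphocyte-poor minus other arrays (x axis), of the tested members of 30 gene lists (rows, number tested in brackets), with members called lower in purple, called higher in green and not called in grey, and the list median as a black bar. T cell and leukocyte medians lie at -2.24 and -1.59, blood endothelium and fibroblast medians at 0.25 and 0.27, and the muscle median at 4.62.

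Few genes of dividing cells were called, and most of their differences were small and negative. Of 24 tested S phase and DNA replication genes, 2 were called lower, which is 8.33% beside 2.42% of all probe sets. Of their differences 23 were negative, beside 56.9% of all, with a median of -0.48. Both poor arrays lay below all others for 11 of the 24, beside 15.8% of all. Mcm3 and Mcm6, subunits of the replicative helicase, differed by -1.34 and -1.04. Mcm3 was 8.09 in casein 6 and 7.74 in soy 149, against 9.08, 9.24 and 9.49. Of 22 tested mitosis and G2 genes, 1 was called lower, which is 4.55%, and 21 differences were negative, with a median of -0.55. Both poor arrays lay below all others for 10 of the 22. For 3 of the 24 S phase and 4 of the 22 mitosis genes the mean of the poor pair lay under the low-signal filter. Those genes passed it only through the other 8 arrays. The called gene, Mki67, a nuclear protein of cycling cells, was 8.69 and 7.66 against 8.88, 9.32 and 9.88. Casein 6 lay close to the lowest of the other arrays for Mki67. Top2a, the topoisomerase of dividing cells, was 8.95 and 8.63 against 8.91, 9.18 and 9.81, so it overlapped. The 14 genes of G1 control and growth arrest had a median of 0.03 with 0 called. Beside these values, all 19 tested cytosolic ribosomal protein genes had negative differences, with a median of -0.26 and 0 called. Both poor arrays lay below all others for 9 of the 19, so such separation was not particular to genes of dividing cells.

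Few epithelial genes were called, and their signals varied widely among the other arrays. Of 13 tested luminal genes, 2 were called lower, which is 15.4% beside 2.42% of all probe sets, and the median was -1.48. For 6 of the 13, and 5 of the 12 basal genes below, the mean of the poor pair lay under the low-signal filter. Those genes passed it only through the other 8 arrays. Krt18, a keratin of luminal cells, was 4.49 in casein 6 and 7.64 in soy 149, against a lowest of 7.39, a median of 9.64 and a highest of 10.93. Epcam, an adhesion molecule of epithelium, was 7.67 and 7.98 against 4.53, 9.68 and 11.72. These ranges overlap, since 1 array of the other 8 was as low: the luminal mean was 7.27 in casein 6, 7.91 in soy 149 and 7.30 in soy 159, and 8.34 to 10.00 in the remaining 7. The called genes were Spint2, a protease inhibitor of epithelium, at -1.59, and Prlr, the prolactin receptor, at -1.48, whose second probe set differed by -0.36 and was not called. The 12 tested basal genes had a median of -0.50 with 0 called, and Krt5, a basal keratin, was 6.72 and 8.05 against 6.84, 9.48 and 11.92. The milk protein Csn1s1 was 6.66 in casein 6 and 8.91 in soy 149 against 6.94, 10.75 and 11.90. Soy 159 had lymphocyte levels like the rest, with a T cell receptor mean of 9.33, so low epithelial signal occurred in it without low lymphocyte signal.

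Matrix genes were level or slightly higher. Of 33 tested fibroblast and matrix genes, 0 were called, 31 differences were positive and the median was 0.27. Both poor arrays lay above all others for 11 of the 33, beside 6.00% of all probe sets. Fbn1, the microfibril protein fibrillin, was 12.61 in casein 6 and 12.89 in soy 149, against 11.86, 12.05 and 12.28, and Col1a1, a chain of type I collagen, was 13.91 and 14.32 against 13.62, 13.84 and 14.67. Adipocyte genes had a median of 0.15 over 24 tested, 0 called, but the 2 poor arrays moved apart. In casein 6, 23 of the 24 were below the mean of the other casein arrays, beside 60.8% of all probe sets, and in soy 149 all 24 were above the mean of the other soy arrays, beside 45.7%. Pnpla2, a triglyceride lipase, was 11.90 in casein 6 and 12.82 in soy 149 against 11.49, 12.04 and 12.11. The difference between the diets in this behaviour was not tested, since each diet had 1 poor array. The nerve and Schwann cell genes had a median of 0.67 with 0 called in their brightest probe sets, and a second probe set of Mbp, a myelin protein, was called higher at 1.17. The 4 blood genes had a median of 0.10 and the 3 skin genes one of -0.33, with 0 called.

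The largest differences upward were those of striated muscle genes. Ttn, the giant spring protein of the sarcomere, was 13.31 in casein 6 and 12.38 in soy 149, against 6.12, 7.01 and 12.17. Apobec2, Ckmt2 and Hrc, proteins of muscle fibres, differed by 3.65, 3.62 and 3.53, and Ldb3, Rbm24, Ddit4l, Fabp3, Cryab and Hspb6 by 2.15 to 2.85. Ttn was also high in soy 157 at 12.17 and in soy 147 at 11.39. Most of the muscle list was not called for that reason: of 18 tested members 3 were called higher although the median difference was 4.62. Ckm, the muscle creatine kinase, was 13.91 and 13.81 in the poor pair and reached 14.30 among the others. The number called higher depended on single arrays, at 126 without soy 157 and 180 without soy 149, against 64 with all arrays.

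Among arrays of like muscle signal, soy 147 and soy 157 form the other group. The 230 lower probe sets lie below these arrays by their definition, so only the size of the difference could change: it was at least 2-fold for 214 of them, with a median of -1.54 against -1.53 over all 8. Of the 64 called higher, 32 kept a 2-fold difference. The T cell receptor median was -2.16 in that comparison, the leukocyte median -1.44, the blood endothelium median 0.24 and the muscle median 0.56. This sets 2 arrays against 2, and the poor pair was chosen on lymphocyte signal.

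The 2 poor arrays could be set against separate control arrays, the 4 others of their own diet. Casein 6 had 317 probe sets at least 2-fold lower than the casein mean and below all 4, and soy 149 had 265 in its diet. These are 3.33% and 2.78% of the tested probe sets. The overlap was 177, which is 55.8% of the casein 6 list and 66.8% of the soy 149 list. Both arrays were chosen by low lymphocyte signal, which bears on this overlap. Upward, casein 6 had 237 and soy 149 had 80, which are 2.49% and 0.840% of the tested probe sets. They had 34 in common, 14.3% and 42.5% of the lists. Over all tested probe sets the 2 differences had a Pearson correlation of 0.68, across probe sets that are not independent, and the choice of the arrays by low lymphocyte signal bears on it. The T cell receptor median was -2.27 in casein 6 and -2.44 in soy 149. For the luminal list the medians were -2.19 and -0.63, and the soy arrays behind the second value include soy 159, whose luminal mean of 7.30 was below that of soy 149.

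**Figure D4:**
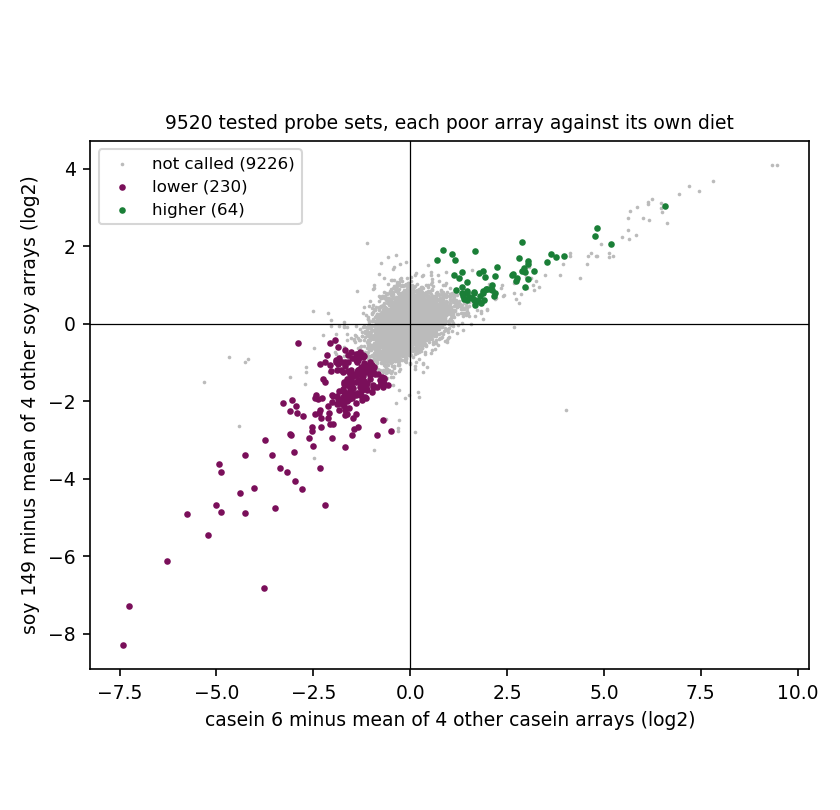
Each of 9520 tested probe sets plotted by its log2 difference between casein 6 and the mean of the 4 other casein arrays (x axis) and between soy 149 and the mean of the 4 other soy arrays (y axis), with the 230 called lower in purple, the 64 called higher in green and the rest in grey. The purple points lie at the lower left, and a grey arm of uncalled points runs to the upper right, where the muscle genes lie.

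A test was run on the variation among the 8 other arrays. It is not fully separate from the choice of the pair, since Cd37 set the pair apart and is part of the predictor. The mean of Cd37, Cxcr5 and Cd74 ran from 9.76 in soy 147 to 10.60 in soy 155, and the slope of every other tested probe set on it was fitted with limma. After Benjamini-Hochberg adjustment 0 of 9517 probe sets passed 0.05, which is 0%, with a smallest adjusted p of 0.60, and 550 had an unadjusted p below 0.05. The 5 named genes with the smallest p were Cd3e, Il2rg, RT1-Db1, Bin2 and Cd79b, with slopes of 1.39 ± 0.22, 1.02 ± 0.18, 1.02 ± 0.19, 1.22 ± 0.24 and 1.40 ± 0.27 log2 units per log2 unit of the marker mean (SE, n = 8 arrays, limma). All 5 code for proteins of leukocytes, and none passed the adjustment.

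A positive slope with an unadjusted p below 0.05 was seen for 3.24% of all 9517 probe sets and for 84 of 228 probe sets called lower, which is 36.8%. Slopes were positive for 190 of these 228, or 83.3%, beside 52.9% of all. Without the 2 arrays farthest from the median of the marker mean, soy 155 and soy 147, 76.3% of the 228 and 50.3% of all had a positive slope. By list, slopes were positive for 20 of 20 leukocyte genes, 11 of 11 T cell transcription and homing genes and 13 of 16 T cell receptor genes, and without those 2 arrays for 20, 11 and 15. For blood endothelium 12 of 24 were positive, and for basal epithelium 0 of 12, against 16 and 4 without the same arrays. Positive slopes were not particular to lymphocyte lists. They were seen for 15 of 17 macrophage, 21 of 24 adipocyte and 17 of 19 ribosomal protein genes, and without the same arrays for 16, 7 and 17. Of 18 muscle genes 0 were positive, but 16 without these arrays. Of the 64 probe sets called higher 15 were positive, but 59 without them. Of the S phase genes 18 of 24 were positive with a median slope of 0.09, but 5 of 24 with a median of -0.59 without soy 155 and soy 147. The mitosis genes had 8 of 22 positive with a median of -0.12, and 1 of 22 with a median of -0.86 without them. The direction for the S phase genes therefore rests on those 2 arrays. These counts describe 8 arrays, whose genes share each array's tissue makeup. The call of lower also used the lowest of these 8 arrays, so the shares among called probe sets are no separate support for the calls.

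**Figure D5:**
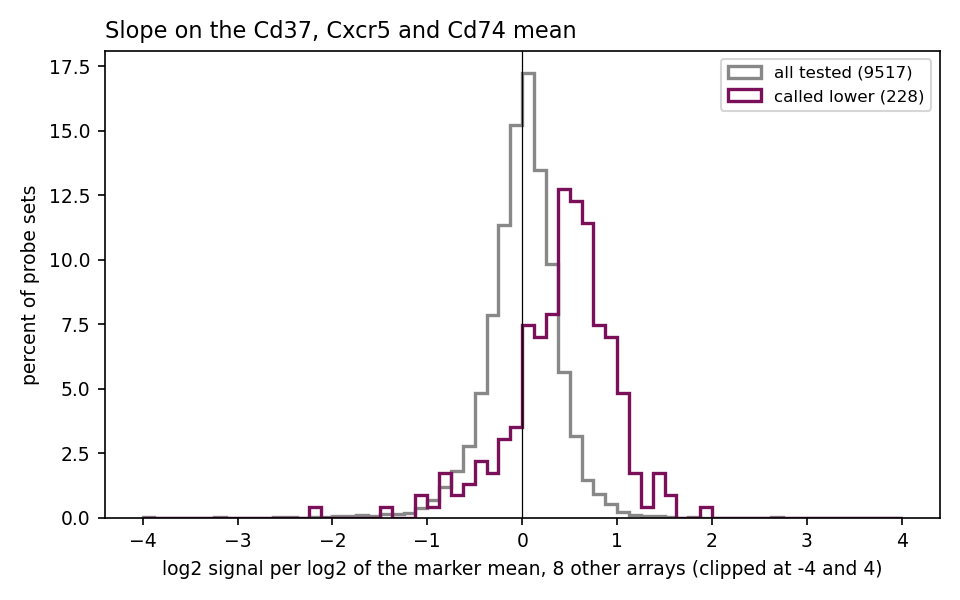
Distribution, in percent of probe sets (y axis), of the slope on the mean of Cd37, Cxcr5 and Cd74 over the 8 other arrays (x axis, log2 signal per log2 unit of the marker mean), for all 9517 probe sets in grey and for 228 called lower in purple. The grey curve is centred near 0.02 and the purple curve near 0.48, with 83.3% of its probe sets above 0.

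Within the 8 arrays the diets could be compared without the poor pair. With 4 soy and 4 casein arrays, 0 of 9520 probe sets passed 0.05 after Benjamini-Hochberg adjustment in limma, which is 0%, with a smallest adjusted p of 0.66, and 700 had an unadjusted p below 0.05. The smallest p belonged to Dhcr7, the last enzyme of cholesterol synthesis, at 9.30 in casein and 8.68 in soy, a soy minus casein difference of -0.62 ± 0.10 (SE, limma). Ncl, Marveld1, Pnpla3 and Hnrnpu followed, at -0.46, -0.58, -1.45 and -0.74. Without casein 20, 1 probe set passed. Of the probe sets called lower in the poor pair, 107 of 230 were higher in soy, beside 46.4% of all, with a median difference of -0.02. Of those called higher, 56 of 64 were higher in soy, and soy 147 and soy 157 are the arrays of this set with high muscle signal.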

How the data were processed

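Whole-gland RNA of 5 casein and 5 soy arrays was measured as probe set intensity with MAS5 by the authors, per the submitters' processing notes, with the version of MAS5 not given in the sources used. The deposited intensity was raised to 1 where it was lower and converted to log2. The deposited 2% trimmed mean was 500.1 on every array, so its scaling was kept. Of 15866 non-control probe sets, the annotation named 1 gene for 12783, several for 312 and none for 2771. The low-signal filter kept the 9520 probe sets whose 10-array mean of log2 signal reached 7.47, the 40th percentile.

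The poor pair, the 30 gene lists and the markers were chosen with earlier results of these data known, so the poor against other contrast was only described. Genes named were the 3 markers, the largest differences, and up to 4 members per list, called members first, then those of highest signal, along with a few list members chosen after their values were seen. The brightest probe set stood for a gene. The diet and slope fits used limma 3.58.1 in R 4.3.3 (intensity trend, two-sided, Benjamini-Hochberg adjustment over all tested probe sets). The steps were tested on simulated data. The number of arrays limits the precision. Promoters came from RefSeq (GRCr8).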

Additional observations from a re-analysis of the deposited data

Results flagged for a closer look

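In 33 groups of 8 values, the list means and markers over the 8 other arrays, 3 had an end array whose gap to its neighbour exceeded Dixon's 95% critical value of 0.526 of the range, where chance gives about 1 in 20. The skin and keratinised epidermis mean was 11.68 in soy 147 and 5.93 to 8.31 in the other 7. The mean of the 3 tested genes of the plasma cell list was 10.34 in soy 147 and 9.16 to 9.61 in the rest. In soy 147 Sdc1 was 10.72 and Prdm1 8.95, each the highest of the 8 arrays. Xbp1 was 11.36 there and lay inside the range of the other arrays, so the list did not move as a whole. The milk protein and secretion mean was 9.14 in soy 159 and 10.66 to 11.62 in the rest. The adipocyte mean of casein 6 differed from its diet's other arrays by -0.32, while that of soy 149 differed from those of its diet by 0.58, which leaves a gap of -0.90 between them. This gap was not tested.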

How the results depend on the processing

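The count of probe sets called lower was 402 with no filter, 118 with a 60th percentile filter, 546 with a 1.5-fold rule, 1501 with no overlap alone, and 98 when the poor mean also had to reach the filter value, an alternative chosen after seeing the data. The count called higher was 209, 31, 209 and 571 under the first 4 of these settings, and 34 when the call had to hold within each diet. A filter on the mean of the 2 group means, which weights the groups equally, gave 175 lower and 93 higher. Leaving out 1 array at a time gave 219 to 312 lower, 66 to 180 higher, 0 to 1 for the diet and 0 to 0 for the slope. The single diet call came without casein 20 (adjusted p = 0.044), and the smallest adjusted p over the other diet settings ran from 0.30 to 0.90. Quantile normalization kept 210 of the 230 lower and 57 of the 64 higher calls, and median centring kept 209 and 64. None of the 59 called named genes changed sign in the 17 settings run for them. A call already places both poor arrays beyond all the others. The sign was therefore fixed when arrays were left out or a part of them was compared. It was also fixed when the signal was changed in a way that keeps the order of the arrays. Only quantile normalization and median centring could have changed a sign, so the other settings do not test it. List medians that changed sign were those of the plasma cell, G1, macrophage, dendritic, pericyte and adipocyte lists, whose medians over all arrays ran from -0.10 to 0.15, and the adipocyte median was -0.29 in casein 6 alone and 0.51 in soy 149 alone. No paired analysis was possible because the diets share no replicate number. Dim signal limits the size of the largest folds, and 2 poor arrays, chosen by their values, limit what the contrast can show.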
